A study of Mus musculus with 42 samples.

Results

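Transcripts of 4 pituitary hormone genes, Gh, Prl, Pomc and Cga, were followed through 42 RNA sequencing libraries of mouse brain. The genes were listed by name, with earlier results of these data known. All 4 were found among the 54232 Ensembl genes of the deposited count table. The 22 libraries labelled hippocampus held 6 from western diet mice with NaKtide, 5 from western diet mice, 5 from control diet mice with NaKtide and 6 from control diet mice. The 20 libraries labelled cerebellum held 5 of each of these groups. Western diet (42% fat) or normal chow (11% fat, the control diet) was given for 12 weeks. NaKtide is a fragment of the sodium pump (Na,K-ATPase) and inhibits the pump's signalling through Src kinase. The mice with NaKtide carried it as a transgene switched on with doxycycline (300 mg/kg of diet) according to the labels, so that transgene, drug and peptide cannot be told apart. The series title speaks of adipocytes, but the labels give neither the promoter of the transgene, nor the age of the mice, nor whether the other mice received doxycycline. The series' design text describes liver and adipose tissue instead of brain. Groups and tissues therefore rest on the labels of the libraries. Whether each library is its own animal is not stated either, and the p-values below therefore speak only of the spread among these libraries, part of which may be technical.

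These genes encode hormones of the anterior pituitary, a gland that lies below the hypothalamus and outside the brain regions named by the labels. Somatotrophs release growth hormone (Gh) and lactotrophs release prolactin (Prl). Corticotrophs, and melanotrophs of the intermediate lobe, process pro-opiomelanocortin (Pomc) to ACTH and melanocyte-stimulating hormone. Gonadotrophs and thyrotrophs make the glycoprotein hormone alpha chain (Cga), which pairs with the beta chains Lhb, Fshb and Tshb. Of the 4, Pomc is also well known from neurons of the hypothalamic arcuate nucleus.

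All 4 are protein-coding genes in GENCODE M21 on GRCm38. Gh (ENSMUSG00000020713) lies on the minus strand of chromosome 11 at 106300271 to 106301865 and has 1 annotated transcript. Prl (ENSMUSG00000021342) lies on the plus strand of chromosome 13 at 27057570 to 27065205. The antisense gene Gm47888 overlaps it, with at most 2 counts in any library. Pomc (ENSMUSG00000020660) lies on the plus strand of chromosome 12 at 3954951 to 3960642. Cga (ENSMUSG00000028298) lies on the plus strand of chromosome 4 at 34893779 to 34907370, and its antisense neighbour Platr9 had 0 counts in every library. The library kit keeps strand per the labels, but the counter's strand setting is not given in the sources used here.

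Because the genes moved together over the libraries, the 250 bases before the start of the 3 members with an entry in RefSeq's promoter table (GRCm38.p6, all on the plus strand) are shown 5′ to 3′. They are chr13:27057320-27057569 for Prl, chr12:3954695-3954944 for Pomc and chr4:34893529-34893778 for Cga. Capitals mark matches to 3 motifs searched on both strands. These were TATAAA (the TATA box), TATNCAT (a core of sites for POU1F1, the pituitary factor of the somatotroph and lactotroph lineage) and TGANGTCA (resembling the cyclic AMP response element).
Prl: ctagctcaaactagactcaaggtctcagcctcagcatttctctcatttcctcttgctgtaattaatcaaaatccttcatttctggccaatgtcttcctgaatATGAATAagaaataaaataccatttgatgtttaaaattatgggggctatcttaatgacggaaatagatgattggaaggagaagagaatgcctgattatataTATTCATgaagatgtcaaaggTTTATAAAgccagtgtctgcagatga
Pomc: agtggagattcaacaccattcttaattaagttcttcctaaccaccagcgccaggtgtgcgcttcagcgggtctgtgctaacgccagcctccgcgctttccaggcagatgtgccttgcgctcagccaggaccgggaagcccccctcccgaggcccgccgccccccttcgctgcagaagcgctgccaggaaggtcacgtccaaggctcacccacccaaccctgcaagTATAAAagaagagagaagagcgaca
Cga: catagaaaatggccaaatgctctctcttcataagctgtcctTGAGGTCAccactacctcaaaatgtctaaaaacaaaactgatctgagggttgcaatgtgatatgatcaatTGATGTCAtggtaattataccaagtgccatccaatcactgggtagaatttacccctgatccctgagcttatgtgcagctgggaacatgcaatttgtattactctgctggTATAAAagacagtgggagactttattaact

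Each of the 3 windows held TATAAA within its last 30 bases. In Prl it matched on both strands at overlapping positions, from -26 and from -24 relative to the start, in Pomc from -25 and in Cga from -30. TATNCAT matched in Prl only, at -148 on the minus strand and -47 on the plus strand. TGANGTCA matched in Cga only, at -209 and -139, and no match of one motif overlapped a match of another. Of 32851 promoter windows of this length, 12.4% held TATAAA, 7.92% held TATNCAT and 7.49% held TGANGTCA. The matches describe letters and are no evidence of binding.

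Library totals ran from 4669374 to 9521002 counts, and levels are given as CPM, which scales a gene's counts by the library total. The smallest totals were those of hippocampus control NaKtide 4 (4669374) and 3 (5046157) and cerebellum control 1 (5260461). These 3 libraries also had the most Gh (below). Cerebellum western 3, next with 5364756 counts, held 0.186 CPM of Gh. The part of library size in the hormone levels was not tested. Gabra6, which marks granule cells of the cerebellum, stayed under 1 CPM in 21 of the 22 hippocampus and 14 of the 20 cerebellum libraries, so most libraries of the cerebellum label lacked a defining marker of that tissue. Prox1, a marker of dentate granule cells, ran from 4.31 to 106 CPM under the hippocampus label and from 5.83 to 33.5 CPM under the cerebellum label. Xist had 69 to 1547 counts in 4 libraries and at most 5 counts in the other 38. Among pairs of 1 group, hippocampus control 5 and 6 were the closest: their counts differed by a chi-square of 2.45 on average over genes, while the second closest pair had 7.69. Results were recomputed without the 4 Xist libraries and with that pair summed. The names hippocampus and cerebellum below are those of the labels. In bulk tissue, fewer cells of a type and less RNA per cell cannot be told apart.

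Gh, the hormone that drives growth and liver IGF-1 output, was low in most libraries and very high in a few. Its median over the 42 libraries was 0.780 CPM and its highest level 447 CPM. In hippocampus libraries it reached 5.91 CPM in western NaKtide mice, where the lowest was 0.210 and the median 0.536 CPM. The 5 hippocampus western libraries held 0.727, 0.804, 0, 1.30 and 2.03 CPM.
Hippocampus control NaKtide stood apart from the other hippocampus groups in 4 of its 5 libraries, with 7.16, 12.0, 388, 447 and 0.755 CPM. Hippocampus control libraries lay between 0 and 1.89 CPM (median 0.357). Library 5 of control NaKtide was inside that range, so these groups overlapped.
In cerebellum libraries Gh had 0.222, 1.78, 1.23, 0 and 0.278 CPM in western NaKtide mice. Western mice held 0.295, 0.152, 0.186, 0.152 and 0.935 CPM. None of these 10 libraries was above 1.78 CPM.
Cerebellum control NaKtide libraries held 21.4, 0.858, 0.397, 0.161 and 0.122 CPM. The cerebellum control libraries held 184, 38.9, 17.8, 64.7 and 2.85 CPM. All 5 cerebellum control libraries were above all 5 western libraries, whereas 1 control NaKtide library lay within the control range. In the 4 libraries with no count, the count of 0 allowed at most 0.521 CPM (3 counts of the total).

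The counting error was small beside these differences. The 95% exact (Clopper-Pearson) interval was 428 to 467 CPM for hippocampus control NaKtide 4, 371 to 406 CPM for control NaKtide 3 and 173 to 196 CPM for cerebellum control 1. Such intervals cover counting error only. Of all 6177 Gh counts in the series, 65.5% were in hippocampus control NaKtide 4 and 3, and 81.2% were in these 2 libraries and cerebellum control 1.

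**Figure D1:**
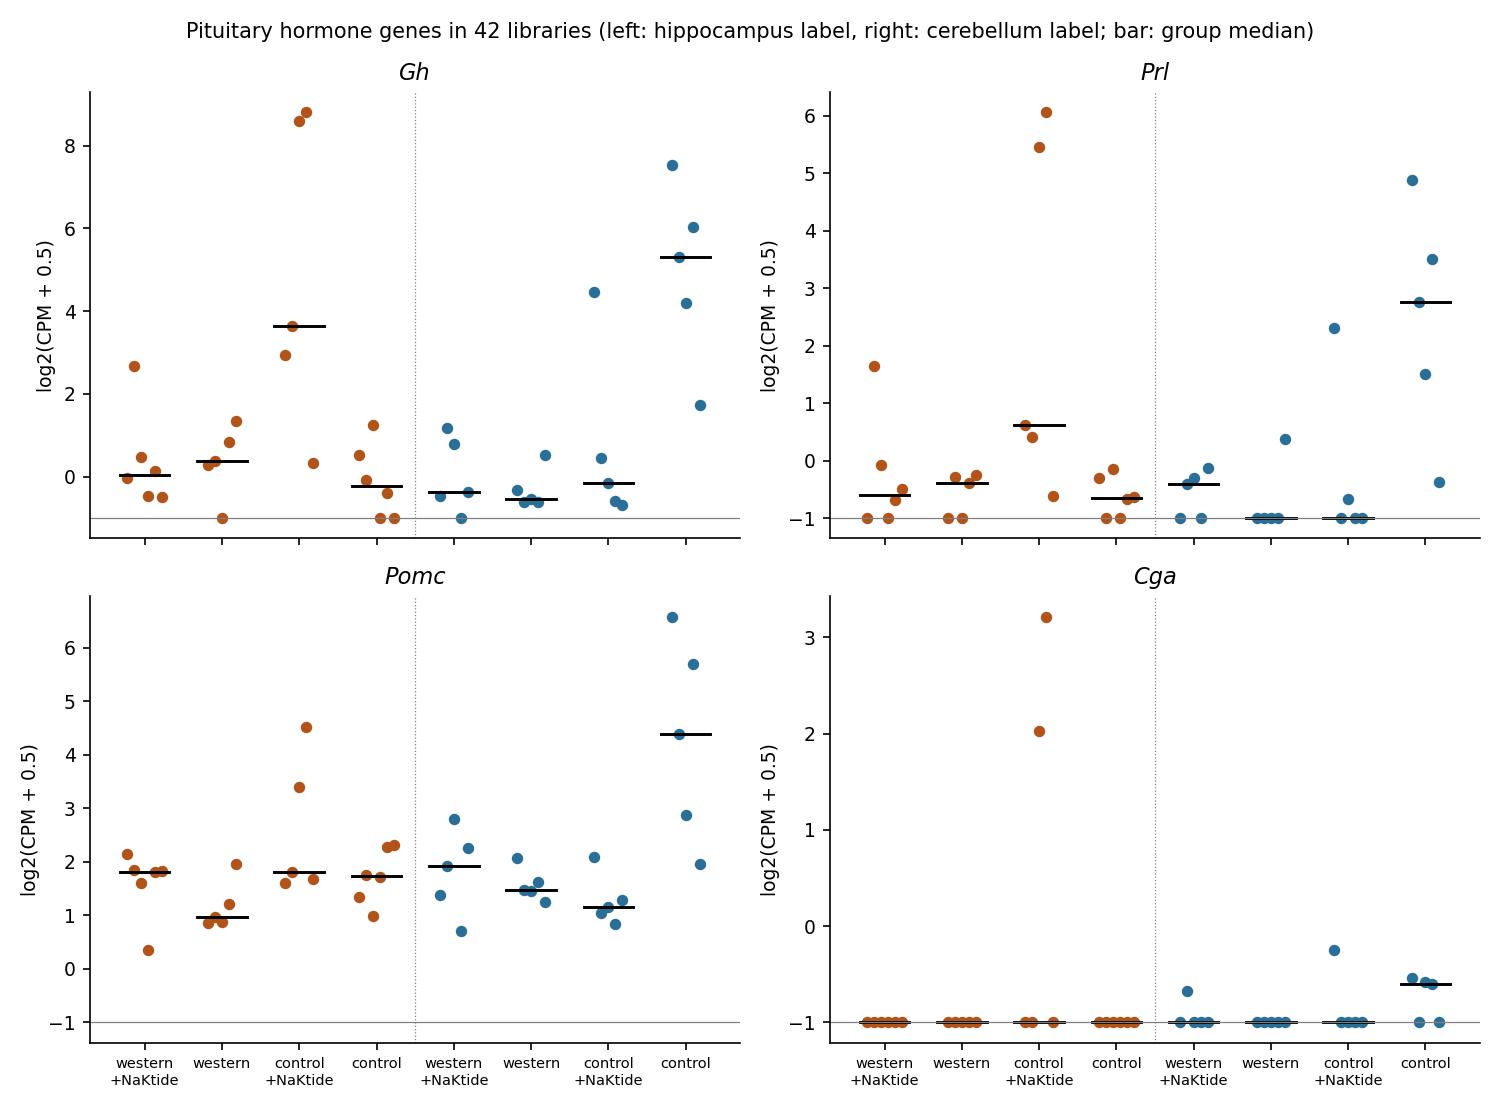
Levels of Gh, Prl, Pomc and Cga in every library as log2(CPM + 0.5), by group, with hippocampus libraries (orange) left and cerebellum libraries (blue) right of the dotted line; black bars are group medians and the grey line is 0 counts. The 2 highest Gh, Prl and Cga libraries belong to hippocampus control NaKtide, and the 2 highest Pomc libraries to cerebellum control.

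Prl, the hormone of lactation, followed Gh at a lower level. It had counts in 27 of the 42 libraries, a median of 0.232 CPM and a maximum of 66.4 CPM. In hippocampus western NaKtide libraries it ran from 0 to 2.62 CPM (median 0.165), and the 5 western libraries held 0, 0.322, 0, 0.260 and 0.339 CPM.
Hippocampus control NaKtide libraries held 1.04, 0.830, 43.6, 66.4 and 0.151 CPM. Hippocampus control libraries ran from 0 to 0.405 CPM (median 0.137). As for Gh, the libraries 3 and 4 of control NaKtide were high and library 5 was within the control range.
In the cerebellum, western NaKtide libraries held 0, 0.254, 0.308, 0 and 0.417 CPM, and western libraries held 0 in 4 libraries and 0.801 CPM in 1. Control NaKtide libraries held 4.46, 0, 0.132, 0 and 0 CPM, against 29.1, 6.31, 2.35, 10.9 and 0.271 CPM in the control libraries. The control group overlapped the western group through control 5, and the control NaKtide group through control NaKtide 1. Libraries with 0 counts were limited to at most 0.559 CPM.

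Pomc differed from the other 3 in having counts in all 42 libraries. Its lowest level was 0.786 CPM and its median 2.82 CPM, and 41 libraries held at least 1 CPM. Hippocampus western NaKtide libraries ran from 0.786 to 3.95 CPM (median 3.02), and hippocampus western libraries held 1.31, 1.45, 1.34, 1.82 and 3.39 CPM.
Hippocampus control NaKtide libraries held 2.54, 2.99, 10.1, 22.3 and 2.72 CPM, and hippocampus control libraries ran from 1.48 to 4.45 CPM (median 2.82). Libraries 3 and 4 of control NaKtide were again the high ones, and the other 3 lay within the control range.
Cerebellum western NaKtide libraries held 2.11, 3.30, 6.46, 1.14 and 4.31 CPM, and western libraries held 3.68, 2.28, 2.24, 2.59 and 1.87 CPM. Control NaKtide libraries held 3.77, 1.57, 1.72, 1.29 and 1.95 CPM, against 95.05, 20.5, 6.87, 51.2 and 3.39 CPM in the control libraries. The highest Pomc levels of the series were thus in cerebellum control 1 and 4, not in the libraries with the most Gh. Control library 5 was within the range of each of the other 3 cerebellum groups.

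Cga was detected in 7 libraries, with 65 counts in all. Hippocampus control NaKtide 4 held 41 counts (8.78 CPM) and control NaKtide 3 held 18 counts (3.57 CPM), which was 90.8% of the total. Cerebellum control NaKtide 1 held 2 counts, and cerebellum western NaKtide 2 and cerebellum control 1, 3 and 4 held 1 count each. In the 35 libraries with 0 counts the limit was at most 0.559 CPM. Cga at 1 CPM or more was thus seen in 2 libraries of the series.

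Set per length, in the authors' deposited FPKM, the order of the genes differed between the high libraries. In hippocampus control NaKtide 4 the levels were 605 FPKM of Gh, 55.0 FPKM of Prl, 19.7 FPKM of Pomc and 10.7 FPKM of Cga. In cerebellum control 1 they were 228 FPKM of Gh, 22 FPKM of Prl, 76.8 FPKM of Pomc and 0.212 FPKM of Cga. Gh was the highest in both, Pomc took second place in cerebellum control 1, and Prl took it in hippocampus control NaKtide 4.

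Counts relative to Gh were taken in the 11 libraries with at least 20 Gh counts, with 95% exact intervals. Prl had 14.8 counts per 100 Gh counts (13.1 to 16.7) in hippocampus control NaKtide 4 and 11.2 (9.72 to 12.9) in control NaKtide 3. It had 15.8 (13.2 to 18.7) in cerebellum control 1, 16.9 (12.9 to 21.9) in control 4 and 16.2 (11.1 to 23.1) in control 2. The highest value, 44.4 (23.0 to 82.2), came from 16 Prl and 36 Gh counts in hippocampus western NaKtide 2. Apart from that library, Prl stood at between 6.94 and 20.8 counts per 100 Gh counts.
Pomc did not keep such a ratio. Hippocampus control NaKtide 3 and 4 had 2.60 (1.93 to 3.44) and 4.98 (4.05 to 6.07) Pomc counts per 100 Gh counts. The cerebellum control libraries had 51.6 (46.2 to 57.5), 52.7 (41.8 to 66.2), 38.7 (26.3 to 56.0), 79.1 (68.1 to 91.9) and 119 (64.0 to 224). The intervals of the 2 hippocampus libraries lay below those of all 5 cerebellum control libraries.
Cga had 1.96 counts (1.4 to 2.67) per 100 Gh counts in hippocampus control NaKtide 4 and 0.919 (0.543 to 1.46) in control NaKtide 3. In cerebellum control 1, with 969 Gh counts, it had 0.103 (0.00261 to 0.576). That interval overlapped the one of control NaKtide 3 narrowly and not the one of control NaKtide 4. These libraries were singled out by their Gh counts, so the ratios are descriptions without a test between groups.

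**Figure D2:**
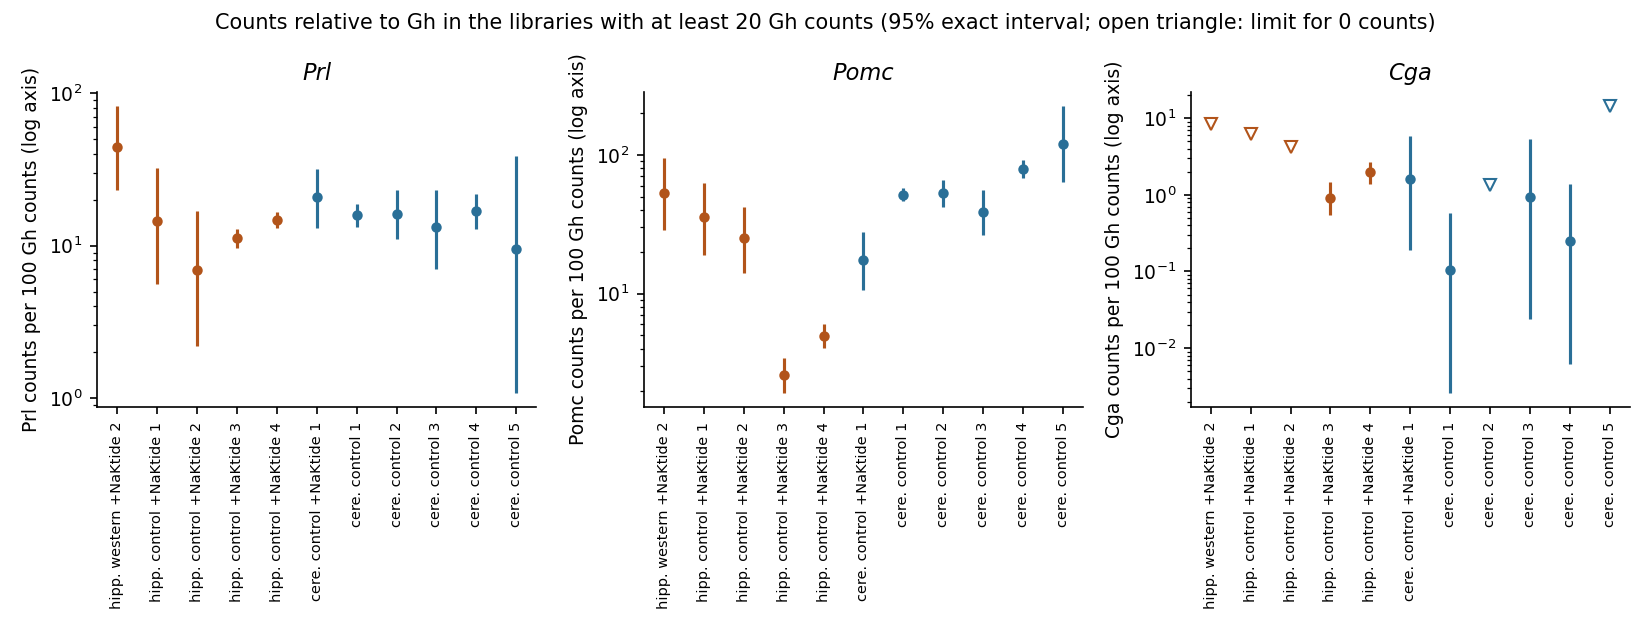
Counts of Prl, Pomc and Cga per 100 Gh counts, on log axes, in each library with at least 20 Gh counts (orange, hippocampus; blue, cerebellum); bars are 95% exact intervals and open triangles the limit that 0 counts allow. Prl lies between 6.94 and 44.4 throughout, whereas Pomc is lowest, at 2.60 and 4.98, in hippocampus control NaKtide 3 and 4.

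Over the 42 libraries the 4 genes varied together. On the log2(CPM + 0.5) scale, Pearson's r was 0.97 for Gh and Prl (Spearman's rho 0.86), 0.78 for Gh and Pomc (rho 0.51) and 0.72 for Gh and Cga (rho 0.61). It was 0.81 for Prl and Pomc (rho 0.57), 0.77 for Prl and Cga (rho 0.58) and 0.46 for Pomc and Cga (rho 0.56). By two-sided permutation tests with 100000 resamples, each of the 6 r had an adjusted p of at most 2.4e-05, except Pomc and Cga (adjusted p = 0.0139). The raw p was 1e-05, the smallest these resamples can give, for 4 of the pairs, 2e-05 for Gh and Cga and 0.0139 for Pomc and Cga. The adjusted p of rho was at most 0.00061 in all 6 pairs.
After subtracting the mean of each group, r was 0.95 for Gh and Prl, 0.69 for Gh and Pomc and 0.74 for Gh and Cga. These r pool the deviations of all groups, and r was not computed inside any single group. Cga was 0 in every library of hippocampus western NaKtide, hippocampus western, hippocampus control and cerebellum western, so it could not vary there.

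The relations differed in how many libraries carried them. For Gh and Prl, r was 0.96 in the 22 hippocampus and 0.97 in the 20 cerebellum libraries. It remained 0.83 in the hippocampus without control NaKtide 3 and 4 (adjusted p = 0.00015 by permutation) and 0.94 in the cerebellum without control 1 and 4, the libraries farthest from the median of Gh. For Gh and Pomc, r was 0.73 in the hippocampus (rho 0.20, raw p of rho 0.374) and 0.89 in the cerebellum. Without those same libraries it was 0.069 in the hippocampus (raw permutation p = 0.773) and 0.77 in the cerebellum (adjusted p = 0.00195). In the hippocampus the relation of Gh and Pomc therefore rested on 2 libraries, and so did that of Prl and Pomc, at 0.80 with them and 0.18 without them (raw permutation p = 0.458). Cga was 0 in the other 20 hippocampus libraries, so its relations there rested on control NaKtide 3 and 4 altogether.
In the cerebellum r was 0.74 for Gh and Cga and 0.71 for Prl and Cga, on at most 2 Cga counts in a library. For Pomc and Cga in the cerebellum it was 0.52, and 0.22 without the 2 libraries farthest from the median of Pomc (raw permutation p = 0.328). Over all libraries, the r of Pomc and Cga without hippocampus control NaKtide 4 was 0.36 (adjusted p = 0.0529 by permutation).

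**Figure D3:**
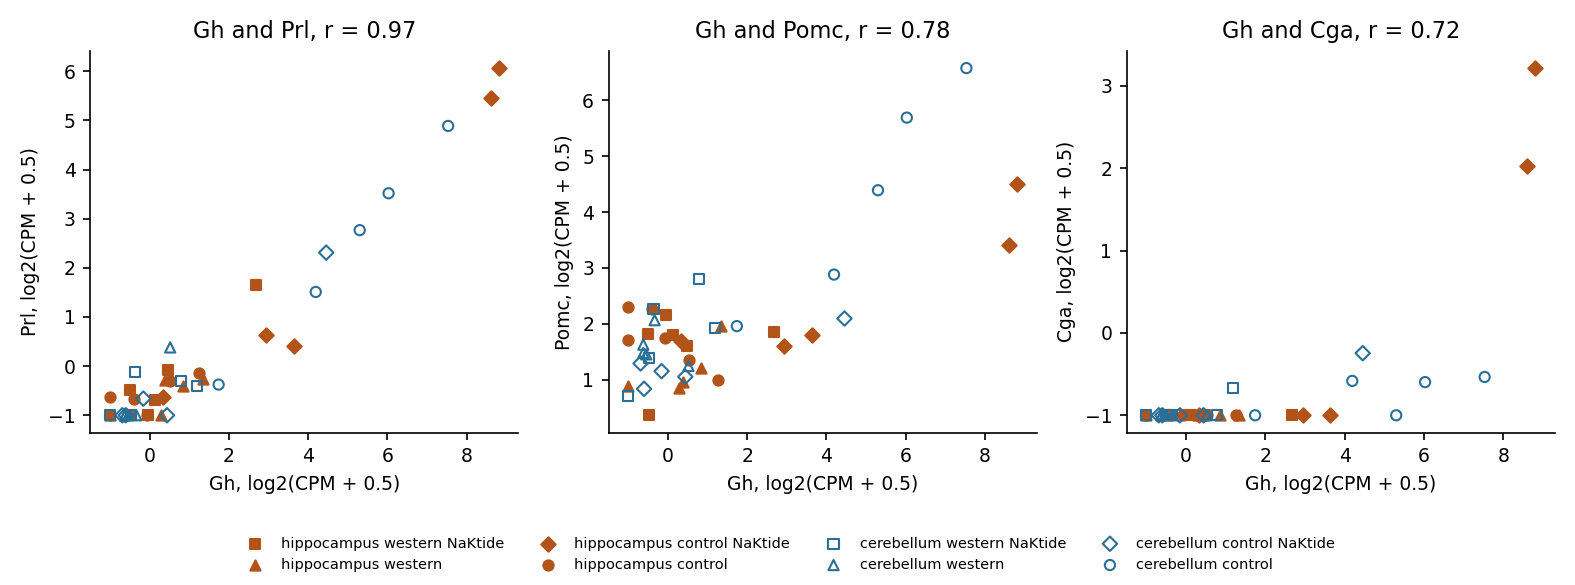
Prl, Pomc and Cga against Gh in the 42 libraries, all as log2(CPM + 0.5) (filled, hippocampus; open, cerebellum; squares western NaKtide, triangles western, diamonds control NaKtide, circles control). Prl lies along 1 line with Gh (r = 0.97), whereas the 2 hippocampus libraries with the most Gh have less Pomc (10.1 and 22.3 CPM) than cerebellum control 1 and 4 (95.05 and 51.2 CPM) and more Cga than any other library.

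Among 15036 named genes with at least 1 CPM in at least 3 libraries, a set that leaves out Cga, which reached 1 CPM in 2 libraries, the 2 genes most like Gh in Pearson's r over the 42 libraries were Prl and Pomc, and those most like Prl were Gh and Pomc. Those most like Pomc were Prl and Gh. Within that set, next came Atp6v1g1 (r = 0.76), Rpl21-ps11 (0.73) and Smim4 (0.73) for Gh, Atp6v1g1 (0.72), Zfas1 (0.71) and Rps23-ps2 (0.70) for Prl, and Pfdn2 (0.72), Arl5c (0.71) and Bc1 (0.71) for Pomc. Unlike the hormone genes, Atp6v1g1 was at 191 CPM in its highest library against a median of 125 CPM. Rpl21-ps11 and Rps23-ps2 are pseudogene copies of ribosomal protein genes, whose reads may be shared with their parents. For Cga the most alike were Prl (0.77), Gh (0.72), Tmprss11a (0.66), Lhb (0.66) and Frmpd1os (0.64), and Pomc ranked 190.

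The other hormone chains of the anterior pituitary were scarce. Lhb, the beta chain of luteinizing hormone, reached 8.78 CPM (41 counts) in hippocampus control NaKtide 4, with 1.19 CPM in control NaKtide 3 and 1.14 CPM in cerebellum control 1, and was at 1 CPM or more in 6 libraries. Fshb, the beta chain of follicle-stimulating hormone, had 10 counts in the whole series, 8 of them (1.71 CPM) in hippocampus control NaKtide 4. Tshb, the beta chain of thyrotropin, had a count in every library and did not stand out with Gh: its median was 0.783 CPM and its highest level, 2.42 CPM, was in cerebellum western 3.
Several factors of pituitary cell types stayed at a few counts also where the hormones were high. Pou1f1, required for somatotrophs, lactotrophs and thyrotrophs, had 8 counts in the series and at most 0.396 CPM (hippocampus control NaKtide 3). Pitx1, Tbx19, Neurod4 and Hesx1 never reached 1 CPM. Others did so in some library, with highest levels of 1.91 CPM for Lhx3, 5.25 CPM for Lhx4, 3.38 CPM for Nr5a1, 13.7 CPM for Gata2, 1.29 CPM for Six6 and 16.6 CPM for Pax7. None of these 6 peaked in hippocampus control NaKtide 3 or 4. Lhx4 peaked in cerebellum control 2, and Nr5a1 and Six6 in cerebellum control 4, which were also high in Gh and Pomc. Lhx3 peaked in cerebellum western NaKtide 2, and Gata2 and Pax7 in cerebellum western 4. The 13 listed factors summed to 25.6 and 24.5 CPM in cerebellum control 4 and 2. Their sum was 10.3 and 3.64 CPM in hippocampus control NaKtide 3 and 4, and reached 37.6 CPM in cerebellum western libraries.
Of 9 receptors through which the hypothalamus acts on the pituitary, the most specific ones were at the limit of detection. Ghrhr, the receptor for growth hormone-releasing hormone, had 2 counts in the series. Gnrhr, the receptor for gonadotropin-releasing hormone, had 3, all in hippocampus control NaKtide 4. The highest levels of the others were 9.16 CPM for Trhr, 98.8 CPM for Crhr1, 1.19 CPM for Avpr1b, 1.36 CPM for Ghsr, 207 CPM for Drd2, 48.5 CPM for Sstr2 and 4.30 CPM for Sstr5, none of them in hippocampus control NaKtide 3 or 4 or in cerebellum control 1.

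**Figure D4:**
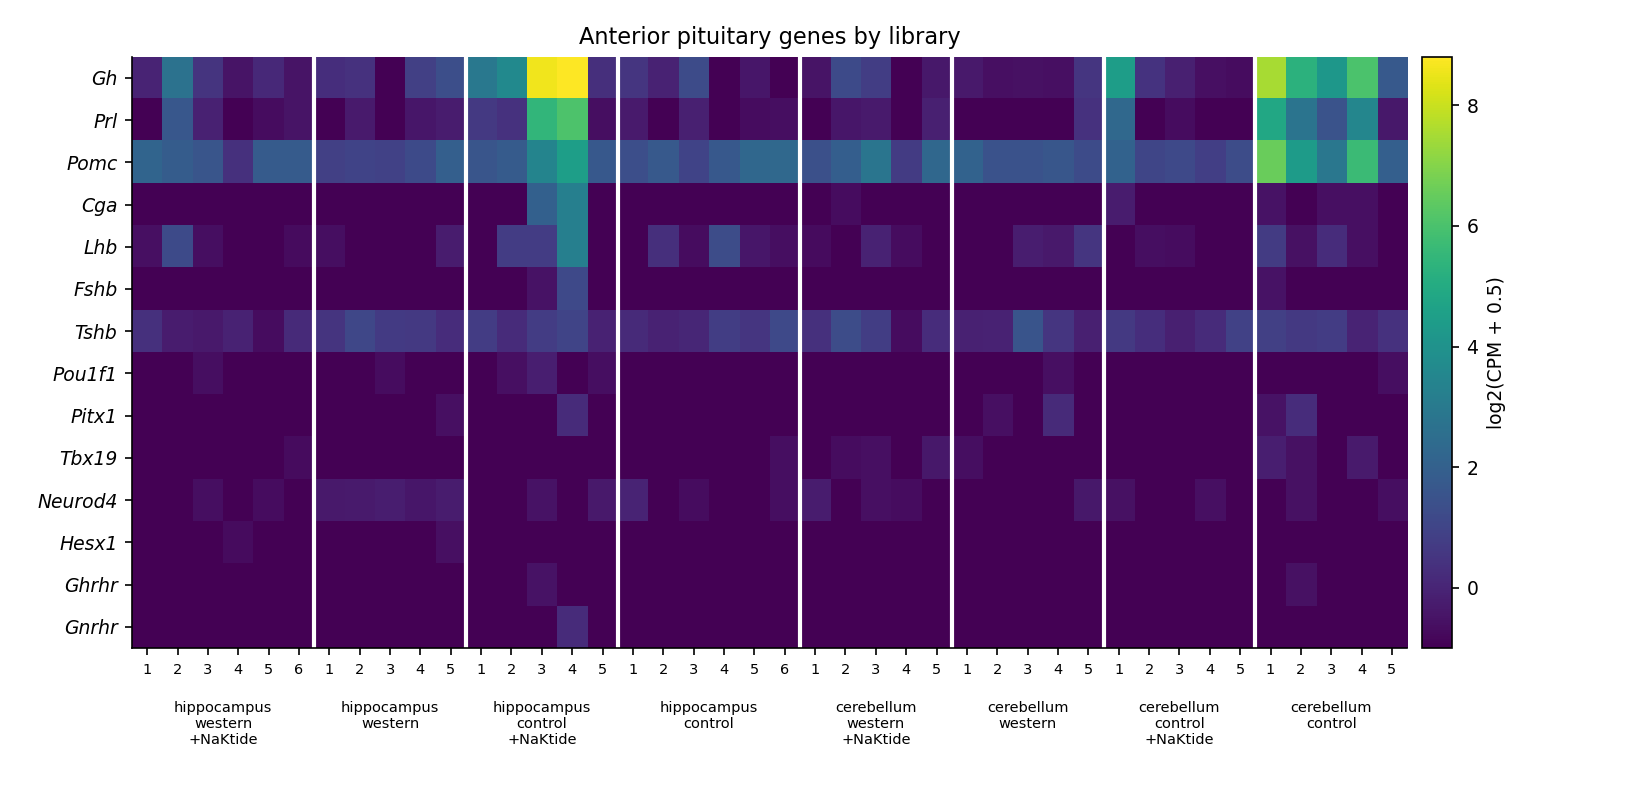
Levels of the 4 hormone genes, the 3 beta chain genes and 7 pituitary factors and receptors in every library (columns, by group and replicate), as log2(CPM + 0.5). Gh and Prl are brightest in hippocampus control NaKtide 3 and 4 and bright in cerebellum control 1 to 4 and cerebellum control NaKtide 1, Pomc is brightest in cerebellum control 1 and 4, while Pou1f1 and the genes below it stay under 1 CPM in all 42 libraries.

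Genes on the path of these hormones differed in level. The 9 genes of prohormone processing and secretory granules, among them the convertases Pcsk1 and Pcsk2 and the granule protein Chga, summed to 3100 CPM in hippocampus control NaKtide 4, within the 2845 to 4408 CPM of all hippocampus libraries. Receptors included Ghr (median 5.31 CPM), Prlr (median 3.24 CPM, highest 22.3 CPM in hippocampus western NaKtide 2) and the melanocortin receptor Mc4r (median 1.73 CPM). Of 12 listed genes, 10 receptors and the melanocortin receptor accessory proteins Mrap and Mrap2, 7 reached 1 CPM in some library. Those that did not included the ACTH receptor Mc2r, with 4 counts in the series, Mc1r with 18, Mc5r with 17 and Fshr with 5. The highest level in the list was 86.8 CPM of Mrap2, in cerebellum western NaKtide 2. The 10 genes of growth hormone and prolactin signalling, which include the STAT5-induced Socs2 and Cish, summed to 69.6 to 118 CPM in hippocampus and 67.3 to 121 CPM in cerebellum libraries, a narrow range beside that of Gh.

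Markers of neighbouring tissue also moved between these libraries. The 8 choroid plexus genes summed to 4487 and 5410 CPM in hippocampus control NaKtide 3 and 4. The sum of control NaKtide 4, the library with the most Gh, was the highest of the series. Group ranges were 349 to 5410 CPM in hippocampus control NaKtide and 9.42 to 5402 CPM in hippocampus control. Ttr alone was at 4321 and 5184 CPM in the 2 libraries. High choroid plexus sums also occurred with little Gh: the highest sum of hippocampus control, 5402 CPM, was in library 4, which had 0 Gh counts.
The 5 blood cell genes summed to 5559 CPM in cerebellum control 1, the highest sum of the series, and the group ranges were 346 to 1354 CPM in cerebellum control NaKtide and 917 to 5559 CPM in cerebellum control. The 17 hypothalamic genes summed to 345 to 590 CPM in cerebellum control NaKtide and 334 to 1323 CPM in cerebellum control. Their top library was cerebellum control 4, with 354 CPM of Hcrt, 95.5 CPM of Avp, 10.1 CPM of Ghrh and 3.54 CPM of Agrp. Cerebellum control 1, which held more Pomc, had 0 counts of Agrp, 0.570 CPM of Ghrh and 0.38 CPM of Avp. Kiss1 was at 0 in all 42 libraries.
In hippocampus control NaKtide 3 and 4, Avp was at 6.94 and 12.0 CPM and Oxt at 4.76 and 10.1 CPM. Such levels were not particular to these 2 libraries by the series as a whole. Avp reached 1 CPM in 26 libraries (median 1.33 CPM) and Oxt in 17 (median 0.472 CPM). Both peaked in cerebellum control 4, at 95.5 and 54.6 CPM. The 4 genes of the posterior pituitary and tanycytes summed to 13.7 to 27.3 CPM in hippocampus control NaKtide and 18.1 to 61.4 CPM in hippocampus control, and the 6 meningeal genes to 14.8 to 70.4 CPM and 13.5 to 52.3 CPM in the same 2 groups. The 8 cerebellar genes summed to 18.8 to 1609 CPM in cerebellum control NaKtide and 22.5 to 462 CPM in cerebellum control. The 8 hippocampal genes summed to 105 to 575 CPM in hippocampus control NaKtide and 202 to 354 CPM in hippocampus control. The part of these tissues in the hormone levels was not tested.

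Whether diet or NaKtide changed the genes was tested with edgeR's quasi-likelihood test, with Benjamini-Hochberg adjustment over all genes tested and calls at an adjusted p under 0.05. Of the 4 genes, 3 passed the filter on low counts in the cerebellum fit (Cga did not), and 2, Gh and Pomc, in the hippocampus fit. None of them was called in any of the 5 contrasts of either label. Their unadjusted p by this test ran from 3.35e-06 (Gh, hippocampus, NaKtide on control diet) to 0.964 (Prl, cerebellum, NaKtide on western diet). For Pomc the lowest was 9.22e-06 (cerebellum, NaKtide on control diet).
In the hippocampus, for NaKtide on control diet edgeR made 0 calls among 16442 genes (0%; 2720 had an unadjusted p under 0.05 and DESeq2 called 3). The diet with NaKtide called 0 (0%, 1756 unadjusted, 33 by DESeq2), the diet without NaKtide 0 (0%, 4046 unadjusted, DESeq2 829) and the interaction 0 (0%, 2399 unadjusted, 180 by DESeq2). NaKtide on western diet called 5542 genes (33.7%), but neither Gh nor Pomc.
In the cerebellum, 1 of 16338 genes (0.00612%) was called for NaKtide on control diet, 1 (0.00612%) for the diet without NaKtide and 1 (0.00612%) for the interaction, none of them a pituitary hormone gene. DESeq2 called 1360, 153 and 6 genes in these 3 contrasts, and 4836, 3192 and 2863 had an unadjusted p under 0.05. NaKtide on western diet called 0 (0%, 645 unadjusted, 1 by DESeq2), and so did the diet with NaKtide (0%, 386 unadjusted, 1 by DESeq2).

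The largest differences followed the few high libraries. In the hippocampus, Gh averaged 171 ± 226 CPM in control NaKtide (SD, n = 5) and 0.591 ± 0.725 CPM in control libraries (n = 6), so that its fold change on the log2 scale was 8.30 (SE 1.35, adjusted p = 0.0551 by edgeR). It was higher than in all controls in 4 of 5 libraries. DESeq2 gave 8.37 with an adjusted p of 1.11e-06. Leaving out 1 library brought edgeR's adjusted p to 0.0157 (without control NaKtide 1), 0.0226 (without 2), 0.00433 (without 5) or 0.0351 (without western NaKtide 2). Only these 4 of the 22 fits without 1 library called Gh, and the highest adjusted p among the 22 was 0.315. Without control NaKtide 3 and 4 together the log2 fold change was 3.47 (adjusted p = 0.736). For the diet with NaKtide, Gh differed by -7.22 (SE 1.24, adjusted p = 0.0832), with 1.38 ± 2.23 CPM in western NaKtide libraries (SD, n = 6) against the same control NaKtide mean. This fold was -2.32 without control NaKtide 3 and 4 (adjusted p = 0.364), and DESeq2 called it at an adjusted p of 0.000143. Both contrasts share the control NaKtide libraries. The interaction for Gh was -7.76 (SE 2.26, adjusted p = 0.165), and DESeq2 called it at an adjusted p of 0.00855. Without the filter on low counts, edgeR called Gh for NaKtide on control diet (adjusted p = 0.0103) and for the diet with NaKtide (adjusted p = 0.0285).
For Pomc in the hippocampus, NaKtide on control diet gave 1.62 on the log2 scale (SE 0.52, adjusted p = 0.210), with 8.12 ± 8.53 CPM in control NaKtide (SD, n = 5) and 2.99 ± 1.2 CPM in control libraries (n = 6). Without control NaKtide 3 and 4 it was -0.055 (adjusted p = 0.981).

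In the cerebellum the control libraries were the high ones. Pomc averaged 2.06 ± 0.987 CPM in control NaKtide and 35.4 ± 38.3 CPM in control libraries (SD, n = 5 each), or -4.26 on the log2 scale (SE 0.72, adjusted p = 0.0753 by edgeR), its smallest adjusted p in a contrast of a single label. Of the 5 control NaKtide libraries, 4 were below every control library. For the diet without NaKtide, Pomc differed by -3.97 (SE 0.70, adjusted p = 0.145), with 2.53 ± 0.692 CPM in western libraries (SD, n = 5).
Gh differed by -7.51 for the diet without NaKtide (SE 1.42, adjusted p = 0.158), with 0.344 ± 0.335 CPM in western and 61.7 ± 72.3 CPM in control libraries (SD, n = 5 each). All 5 western libraries were below all 5 control libraries. NaKtide on control diet gave -4.01 (SE 1.10, adjusted p = 0.0870).
Prl differed by -5.79 for the diet without NaKtide (SE 1.37, adjusted p = 0.158), with 0.160 ± 0.358 CPM in western and 9.79 ± 11.5 CPM in control libraries (SD, n = 5 each). For NaKtide on control diet it differed by -3.69 (SE 1.14, adjusted p = 0.0870), with 0.918 ± 1.98 CPM in control NaKtide libraries (SD, n = 5).
DESeq2 called Gh and Pomc in both contrasts, with adjusted p of 0.0369 and 1.37e-07 for NaKtide on control diet and 2.55e-05 and 2.00e-06 for the diet without NaKtide, and Prl in neither.
Calls also depended on cerebellum control 5, the control library with the least Gh. Without it edgeR called Gh, Prl and Pomc both for NaKtide on control diet (adjusted p of 0.0153, 0.0181 and 0.00355) and for the diet without NaKtide (0.0328, 0.0407 and 0.00715), and Pomc for the interaction (0.0389). All genes called then numbered 4385, 846 and 5 in these 3 contrasts. Leaving out control 3, control NaKtide 1 or western NaKtide 3 also led to calls. Without control 3, edgeR called Pomc for NaKtide on control diet and for the diet without NaKtide, 1 of 2 genes called in each. Without control NaKtide 1 it called Gh in the same contrasts, again 1 of 2 genes in each. Without western NaKtide 3 it called Gh and Pomc for NaKtide on control diet, among 1389 genes. Over the 20 edgeR fits without 1 cerebellum library, adjusted p also rose. Its highest value for NaKtide on control diet was 0.233 for each of Gh, Prl and Pomc. For the diet without NaKtide it was 0.307 for Gh and Pomc and 0.396 for Prl. Without control 1 and 4, the log2 fold changes for NaKtide on control diet were -2.40 for Gh, -1.99 for Prl and -2.52 for Pomc, with adjusted p between 0.331 and 0.426.

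**Figure D5:**
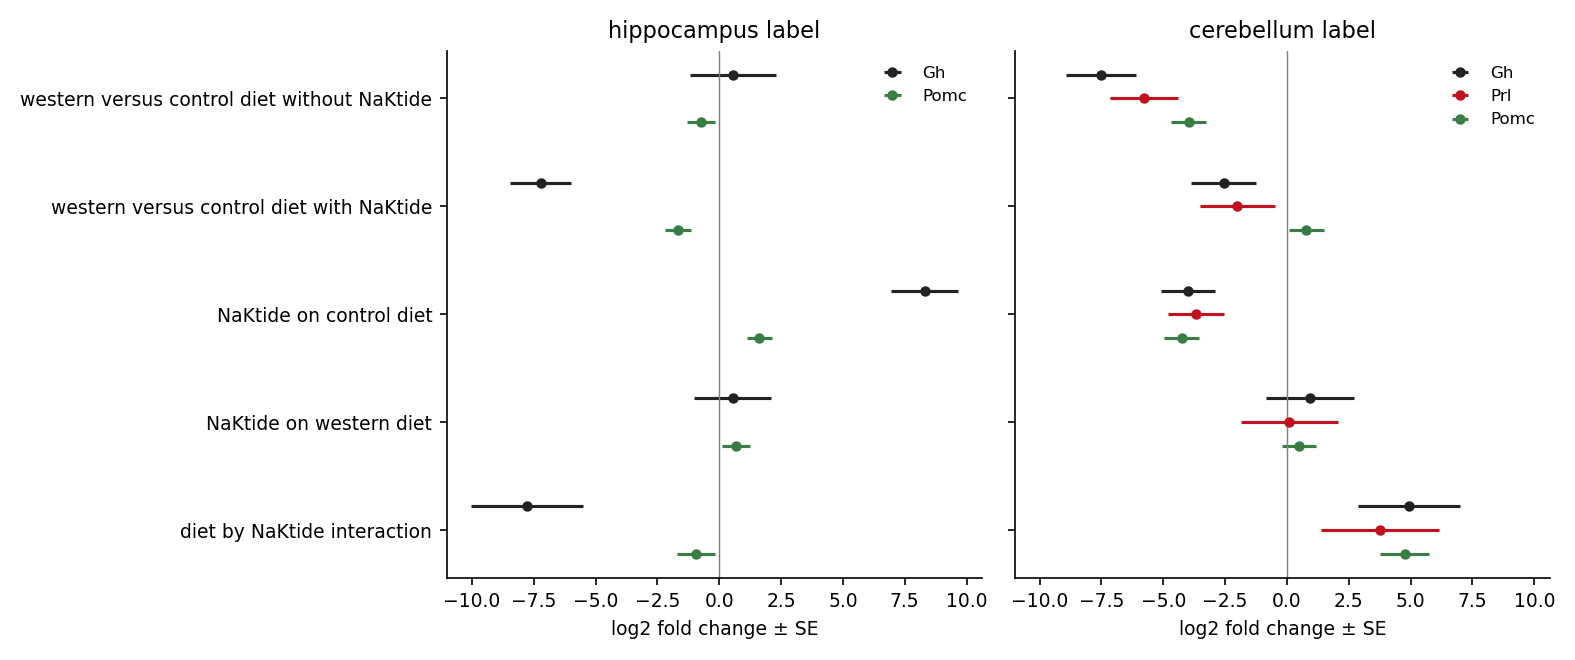
Log2 fold changes with their standard errors from edgeR for the genes that passed the filter on low counts, in the 5 contrasts of each label (Gh black, Prl red, Pomc green). The NaKtide effect on control diet lies at 8.30 for Gh in the hippocampus and at -4.01 in the cerebellum; no value passed an adjusted p of 0.05.

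Between the labels themselves, edgeR called 8 of 17088 genes (0.0468%, 87 by DESeq2) and none of the 3 members tested. Their log2 differences, hippocampus minus cerebellum, were 0.25 for Gh (SE 0.78), 0.12 for Prl (SE 0.98) and -0.57 for Pomc (SE 0.31), with adjusted p from 0.446 to 0.976. One of the 8 was the cerebellar adhesion gene Fat2, with a log2 difference of -5.54 (SE 1.11, adjusted p = 0.0452).

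The opposite signs of NaKtide on control diet in the 2 labels were compared in a fit of all 42 libraries, a test chosen after the values had been seen. The effect in the hippocampus minus that in the cerebellum was 12.3 for Gh (SE 1.82, adjusted p = 0.000717 by edgeR), 10.8 for Prl (SE 1.83, adjusted p = 0.00361) and 5.85 for Pomc (SE 0.88, adjusted p = 0.000717), on the log2 scale. All 3 tested members were called, beside 3525 of 17088 genes (20.6%). Among the marker lists, 4 of the 5 blood cell genes were called in this comparison, higher by 2.15 to 2.58, and no gene of the other 12 lists. Without hippocampus control NaKtide 3 and 4, the differences were 7.45, 5.61 and 4.21, with adjusted p of 0.0751, 0.0791 and 0.0751, and edgeR called 0 genes. The difference between labels in the effect of the diet without NaKtide called 0 genes (0%, 907 unadjusted, 3 by DESeq2, of which 1 was Gh).
In the contrasts of single labels, no gene of the 13 marker lists was called other than in hippocampus NaKtide on western diet. There 1 of the 5 pituitary receptors tested rose (Sstr5, log2 fold change 1.85, adjusted p = 0.0499) and 2 of 9 processing genes fell (Pcsk1 by 1.29 and Pam by 0.58). Of the genes tested in that contrast, 4 of 12 hypothalamic genes (Cartpt, Sst, Avp and Nkx2-1) and 4 of 5 blood cell genes rose. Among the others, 4 of 8 hippocampal genes, 2 of 5 cerebellar genes and Col25a1 of the posterior pituitary list fell, beside 33.7% of all genes called.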

How the data were processed

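The labels name a stranded mRNA kit. Per the submitters' processing notes, the tools were HISAT2 2.1.0, Trimmomatic 0.38 and DESeq2 1.20.0, with GRCm38. Which counter was used, and which annotation, is not stated there or in the labels. The deposited raw table holds a whole-number count per gene. A second deposited table holds signal, which is each count over 1 size factor per library, and the authors' FPKM table divides this by 1 factor per gene, both checked against the counts. FPKM served only to compare genes. Symbols were found for 54079 of 54232 IDs, and 0 columns were left unused.

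CPM used library totals. edgeR 4.0.16 in R 4.3.3 fitted the 4 groups of each label as 1 factor (TMM factors, filterByExpr, p adjusted over all genes). Each SE was obtained as the size of the log2 fold change divided by √F. DESeq2 1.42.0 served as an alternative. Scripts in Python 3.11.15 (scipy 1.17.1) made the rest, and the fit and the permutation test were tested on simulated data. Members and marker lists were chosen with earlier results of these data known. Members are named throughout, listed pituitary genes where they reached 1 CPM or marked a hormone's cells, and genes most alike by r. Some listed genes are not reported here.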

Additional observations from a re-analysis of the deposited data

Results flagged for a closer look

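Of 28 gene and group combinations with any counts, 10 had 1 library whose gap to the next, divided by the range of the group, passed Dixon's 95% critical value. Chance flags about 1 in 20 for independent values of normal spread, a rate that does not hold for these skewed counts of genes that vary together. Where all other libraries of the group are at 0, as in 3 of the 10, any count passes. Cerebellum control NaKtide 1 was such a library for all 4 genes, with 21.4 CPM of Gh, 4.46 CPM of Prl, 3.77 CPM of Pomc and 0.343 CPM of Cga, the last from 2 counts. Hippocampus western NaKtide 2 stood out with 5.91 CPM of Gh and 2.62 CPM of Prl. Cerebellum western 5 stood out with 0.935 CPM of Gh and 0.801 CPM of Prl, from 7 and 6 counts. Pomc was at 3.39 CPM in hippocampus western 5, and Cga at 0.127 CPM, from 1 count, in cerebellum western NaKtide 2. Hippocampus control NaKtide 3 and 4 were not among them, since the rule sees 1 library at a time.

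The effect of NaKtide on control diet differed between the labels, by 12.3 for Gh, 10.8 for Prl and 5.85 for Pomc on the log2 scale (hippocampus minus cerebellum, edgeR). This comparison was chosen after the data were seen, and its calls were lost without hippocampus control NaKtide 3 and 4.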

How the results depend on the processing

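Counts of members called are compared with the 0 of edgeR. With DESeq2 they were 2 (Gh and Pomc) for both cerebellum contrasts, NaKtide on control diet and the diet without NaKtide. They were 1 (Gh) for hippocampus NaKtide on control diet, the diet with NaKtide and the interaction, and 1 (Gh) for the added difference between labels in the diet effect. Without the low-count filter they were 1 (Gh) for hippocampus NaKtide on control diet and for the hippocampus diet with NaKtide, and 1 (Pomc) for cerebellum NaKtide on control diet. Leaving out single libraries gave 0 to 3 for both cerebellum contrasts, 0 to 1 for the cerebellum interaction, hippocampus NaKtide on control diet and the hippocampus diet with NaKtide, and 0.360 to 0.524 for the r of Pomc and Cga. With the replicate block, 0 members were called in each of the 11 planned contrasts. Same-numbered libraries deviated together in 10 of 31 hippocampus and 12 of 30 cerebellum pairs (correlation over 0.1), so the numbers were not taken as pairs. Without hippocampus control NaKtide 3 and 4, a choice made after seeing the data, the 3 members called for the difference between labels became 0, and hippocampus Pomc for NaKtide on control diet turned to -0.055. The cause of these shifts was not tested. Without the 4 Xist libraries, 0 members were called in the planned contrasts. Over both labels together, 1 correlation crossed the threshold, that of Pomc and Cga without hippocampus control NaKtide 4. Within the labels, those of Gh and Pomc and of Prl and Pomc (hippocampus) and of Pomc and Cga (cerebellum) did so without the 2 libraries farthest from the median. Depth limits Cga, which had at most 2 counts outside 2 libraries.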
